A study of Mus musculus with 7 samples.

Results

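The 8 genes described here encode the RUNX transcription factors Runx1, Runx2 and Runx3, their shared partner subunit Cbfb, the ETO family corepressors Runx1t1, Cbfa2t2 and Cbfa2t3, and the ETS repressor Etv6. They were taken by gene symbol from a counts table of 34305 rows, and all 8 passed the filter on low counts that left 14808 genes for testing. Polyadenylated RNA was sequenced from mouse HSPCs, the stem and progenitor cells at the root of blood formation, grown in culture. There were 3 libraries of cells overexpressing MN1pQdel, which is MN1 without its polyglutamine stretch (MN1-∆pQ), 3 of cells overexpressing full-length MN1, and 1 of untransduced cells (noTD). MN1 is a transcriptional coactivator and a myeloid oncogene. The medium held murine SCF, IL-6 and IL-3, cells were sorted after transduction, and RNA was purified 7 to 9 days into culture. The labels give no strain, age or promoter of the constructs. They call the samples of a group independent without tying them to animals or cultures, so the p-values measure only the spread between these samples.

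RUNX proteins bind DNA through the Runt domain, and CBFB, which does not touch DNA itself, strengthens that binding and protects the RUNX subunit from breakdown. RUNX1 is needed for the emergence of definitive blood stem cells and for megakaryocyte and lymphoid development, RUNX2 is the master regulator of bone formation, and RUNX3 acts in T cells, natural killer cells and sensory neurons. The ETO proteins carry no DNA-binding activity for specific sites of their own and bring nuclear corepressors and histone deacetylases to E proteins and to the TAL1 complex. In human leukaemia RUNX1 is fused to RUNX1T1, to CBFA2T3 or to ETV6, CBFB is fused to MYH11, and ETV6 is also fused to MN1 itself.

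Runx1 and Runx2 were the members that passed the test between MN1pQdel and MN1 cells, and a RUNX protein can itself bind RUNX promoters, so the promoters of these genes are shown. RefSeq starts were available for 7 of the 8 members, with 10 promoters in all. The sequences below are the 250 bases before each start on GRCm38.p6, read 5′ to 3′ on the gene's strand, with the RUNX core letters TGTGGT or TGCGGT, on either strand, in capitals. Runx1 has a distal promoter (chr16:92826075-92826324, minus strand) and a proximal one (chr16:92697330-92697579, minus strand). For Runx2 a single promoter was listed, at chr17:44814628-44814877 on the minus strand.
Runx1 distal: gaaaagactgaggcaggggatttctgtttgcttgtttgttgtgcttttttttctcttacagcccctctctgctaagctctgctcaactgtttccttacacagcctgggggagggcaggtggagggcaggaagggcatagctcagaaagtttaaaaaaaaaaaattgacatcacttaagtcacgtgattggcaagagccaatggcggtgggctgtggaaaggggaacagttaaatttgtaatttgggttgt
Runx1 proximal: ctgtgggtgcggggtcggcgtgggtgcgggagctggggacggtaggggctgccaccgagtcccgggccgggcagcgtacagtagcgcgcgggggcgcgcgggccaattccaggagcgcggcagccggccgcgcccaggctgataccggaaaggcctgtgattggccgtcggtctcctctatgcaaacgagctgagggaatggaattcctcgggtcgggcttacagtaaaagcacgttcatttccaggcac
Runx2: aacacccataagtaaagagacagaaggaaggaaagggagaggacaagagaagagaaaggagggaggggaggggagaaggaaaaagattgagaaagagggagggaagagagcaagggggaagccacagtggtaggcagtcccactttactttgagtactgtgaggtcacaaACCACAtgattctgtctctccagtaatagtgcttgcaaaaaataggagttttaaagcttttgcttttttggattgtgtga
The listed Runx2 promoter held 1 match, which begins 80 bases before the RefSeq start, and neither Runx1 promoter held one. Matches were found in 3 of the 10 promoters, the others being the first listed promoter of Runx3, with 2 matches beginning 134 and 126 bases before the start, and the upstream promoter of Cbfa2t3. In the GENCODE annotation Runx2 begins at 44814797 and Runx1 at 92826149, so the Runx2 and distal Runx1 windows reach into the annotated genes. The Runx2 match lies inside its annotated gene. The bases just after the RefSeq start were not found in a GENCODE transcript for the proximal Runx1 promoter or the first listed Runx3 promoter. Of all 32851 RefSeq promoters of this length, 18.6% held these letters. The ETS letters CCGGAAGT, on either strand, occurred in 0 of the 10 promoters and in 2.88% of all promoters. A match is a description of the letters and not a binding site. Only the listed RefSeq starts were searched, while GENCODE annotates 13 transcripts of Runx2. The counts per gene do not separate transcripts of different promoters, such as the distal and proximal ones of Runx1.

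Library totals ran from 43025153 to 67728658 estimated counts in MN1pQdel, from 38210660 to 43194988 in MN1, and stood at 38642911 in noTD. Levels are given as CPM, counts divided by library size, with TMM scaling over the 7 libraries. Mn1 stood at 691, 404 and 728 CPM in MN1pQdel replicates 1, 2 and 3, at 314, 287 and 288 CPM in MN1 replicates 1, 2 and 3, and at 33.6 CPM in noTD, so that MN1pQdel replicate 2 was the lowest of its group. The means were 607 ± 177 CPM in MN1pQdel and 297 ± 15.1 CPM in MN1 (SD, n = 3 each). The table does not separate the endogenous gene from the constructs, and Mn1 counts differed between the groups along with the stretch. Of 8 HSPC markers 3 were lower in MN1pQdel and 0 higher, and their summed level was 1111 to 2362 CPM in MN1pQdel, 1735 to 2253 CPM in MN1 and 2213 CPM in noTD. All 10 neutrophil markers, all 7 measured eosinophil markers and 6 of 9 measured mast cell markers were higher in MN1pQdel (edgeR, Benjamini-Hochberg adjusted p under 0.05). Monocyte and macrophage markers were higher in 5 of 8 and basophil markers in 3 of 5, with 0 lower in either list. Of 9 tested erythroid markers 1 was higher and 1 lower. Dendritic and plasmacytoid markers passed in 0 of 4 tested genes and megakaryocyte markers in 0 of 8. Among all genes tested 11.1% were higher in MN1pQdel and 6.08% lower. Summed mast cell markers stood at 14044, 2058 and 16681 CPM in MN1pQdel replicates 1, 2 and 3, at 2837, 1052 and 2545 CPM in MN1 replicates 1, 2 and 3, and at 14448 CPM in noTD. MN1pQdel replicate 2 stood apart from its group here, and also in eosinophil markers, with 234 CPM against 3392 and 3631 CPM in the other MN1pQdel libraries, 12.5 to 19.6 CPM in MN1 and 3790 CPM in noTD. In bulk RNA a change in the share of a cell type and a change in RNA per cell cannot be told apart. Markers of the cells best known for RUNX2 and RUNX3 were near 0: the bone genes Bglap, Sp7, Alpl and Ibsp and the lymphocyte genes Cd3e, Cd3g, Cd4 and Cd8a were each under 1 CPM in all 7 libraries. The 9 bone and stroma markers summed to 6.75 to 10.7 CPM in MN1pQdel, 2.72 to 4.22 CPM in MN1 and 8.77 CPM in noTD, and the 8 T and NK cell markers to 3.01 to 4.72 CPM in MN1pQdel, 6.41 to 7.01 CPM in MN1 and 5.15 CPM in noTD.

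Runx1 rose and Runx2 fell in MN1pQdel relative to MN1, while Runx3 and Cbfb did not pass the test. Over all genes tested 17.2% passed, 11.1% higher and 6.08% lower in MN1pQdel, and of the 8 members 1 was higher and 1 lower. The median log2 fold change was -0.04 over the members and 0.01 over all genes tested. The libraries of the 2 groups did not overlap for 4 of the 8 members, where 43.6% of all genes tested did not overlap. Scaling by library totals alone moved the median of all genes to -0.19 on the log2 scale and turned the share of called genes that were higher in MN1pQdel to 38.2%, against 64.6% with TMM.

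Runx1 (chromosome 16, 92601466 to 92826149 on GRCm38, minus strand) stood at 187, 89.4 and 208 CPM in MN1pQdel replicates 1, 2 and 3, at 66.7, 51.2 and 55.7 CPM in MN1 replicates 1, 2 and 3, and at 176 CPM in noTD. Every MN1pQdel library lay above every MN1 library, with MN1pQdel replicate 2 the lowest of its group, and noTD lay within the MN1pQdel range. The means were 162 ± 63.3 CPM in MN1pQdel and 57.9 ± 7.93 CPM in MN1 (SD, n = 3 each), and the log2 fold change was 1.49 with an SE of 0.31 (adjusted p = 0.0259 by edgeR with Benjamini-Hochberg adjustment). With the replicate block, which pairs same-numbered libraries, the log2 fold change was 1.41 (adjusted p = 0.0195, edgeR). Without MN1pQdel replicate 2 the log2 fold change was 1.77 (adjusted p = 0.000741, edgeR). Leaving out any of the other 5 libraries ended the call, at values of 1.27 to 1.60 and adjusted p of 0.0686 to 0.0996 by edgeR. In those fits 506 to 941 of all genes tested were called, against 2545 in the main fit. MN1pQdel replicate 2 was the lowest of its group in Runx1 and in the summed mast cell and eosinophil markers. It was also the lowest in Mn1, at 404 CPM against 691 and 728 CPM in the other MN1pQdel libraries. Summed neutrophil markers were lowest in MN1pQdel replicate 3. Mn1 also differed between the groups. The part of Mn1 and of the mast cell, eosinophil and neutrophil markers in the Runx1 difference was not tested. Without both replicate 2 libraries, an alternative chosen after seeing the data, Runx1 differed by 1.67 (edgeR adjusted p = 0.00344).

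Runx2 (chromosome 17, 44495987 to 44814797, minus strand) went the other way. It stood at 36.4, 42.5 and 24.1 CPM in MN1pQdel replicates 1, 2 and 3, at 60.3, 73.1 and 64.1 CPM in MN1 replicates 1, 2 and 3, and at 27.5 CPM in noTD. The MN1 libraries were the 3 highest of the 7, and noTD lay within the MN1pQdel range. The means were 34.3 ± 9.37 CPM in MN1pQdel and 65.8 ± 6.56 CPM in MN1 (SD, n = 3 each), and the log2 fold change was -0.93 with an SE of 0.21 (adjusted p = 0.0317 by edgeR with Benjamini-Hochberg adjustment). With the replicate block the value was -0.96 (adjusted p = 0.0193, edgeR). Over the fits lacking 1 library the value ran from -1.12 to -0.73. Runx2 kept its call in 2 of these 6 fits, those without MN1pQdel replicate 2 and without MN1pQdel replicate 3. It lost the call without MN1pQdel replicate 1 or without any 1 of the 3 MN1 libraries, with edgeR adjusted p from 0.0852 to 0.112. The fits in which it lost the call had 506 to 683 genes called over all genes, against 2545 in the main fit.

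Runx3 (chromosome 4, 135120652 to 135177990, plus strand) overlapped between the groups. It stood at 92.5, 62.3 and 114 CPM in MN1pQdel replicates 1, 2 and 3, at 77.1, 80.2 and 93.5 CPM in MN1 replicates 1, 2 and 3, and at 99.3 CPM in noTD. The lowest and the highest of all 7 libraries were both MN1pQdel libraries. The log2 fold change was 0.11 with an SE of 0.22 (adjusted p = 0.732 by edgeR with Benjamini-Hochberg adjustment), and it turned to -0.10 with library totals alone and also without MN1pQdel replicate 3.

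Cbfb (chromosome 8, 105170674 to 105217989, plus strand), the non-DNA-binding subunit, stood at 141, 148 and 152 CPM in MN1pQdel replicates 1, 2 and 3, at 124, 142 and 131 CPM in MN1 replicates 1, 2 and 3, and at 127 CPM in noTD. MN1pQdel replicate 1 lay just below MN1 replicate 2, so the groups overlapped. The log2 fold change was 0.17 with an SE of 0.10 (adjusted p = 0.261 by edgeR with Benjamini-Hochberg adjustment) and turned to -0.04 with library totals alone.

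**Figure D1:**
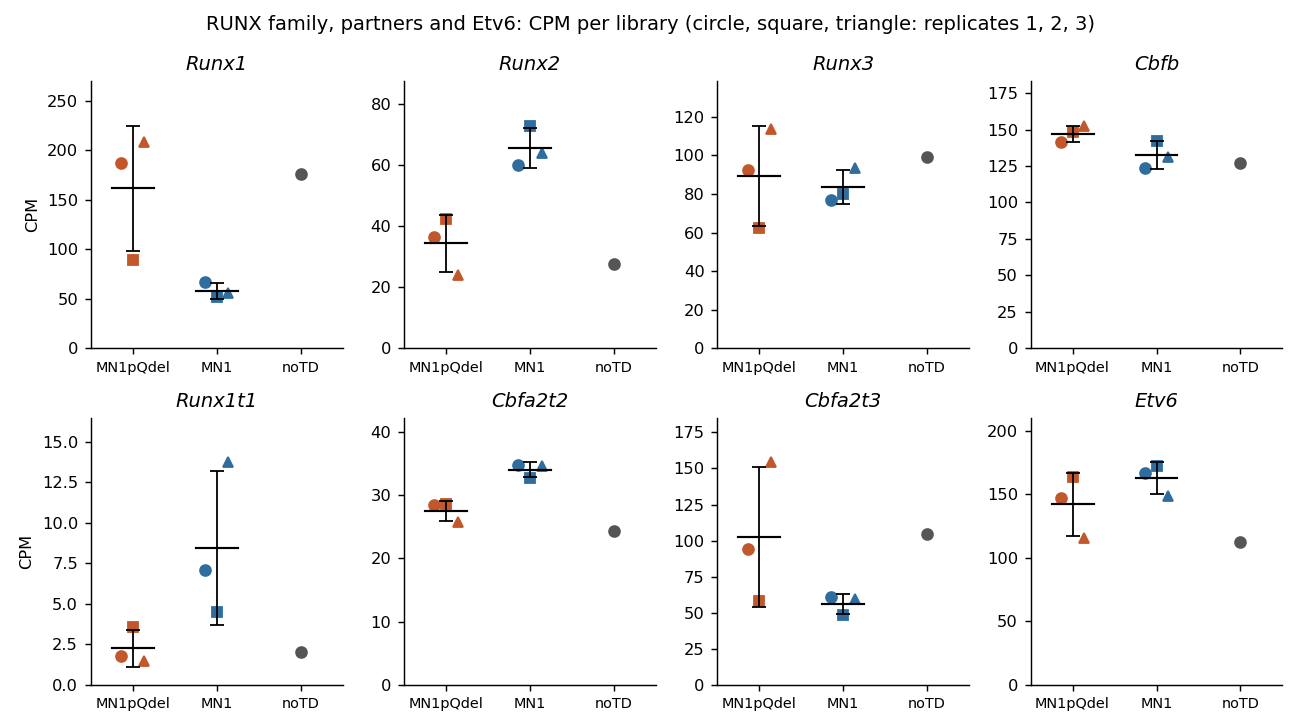
CPM of the 8 members (y axis, from 0) in each library, with MN1pQdel, MN1 and noTD along the x axis. Points are libraries, and horizontal lines with bars are the mean and SD of 3 libraries. Runx1 is at 89.4 CPM or above in MN1pQdel and at 66.7 CPM or below in MN1, and Runx2 is at 42.5 CPM or below in MN1pQdel and at 60.3 CPM or above in MN1.

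The ratio of Runx1 to Runx2 counts within a library does not depend on how libraries are scaled. It was 5.16, 2.10 and 8.61 in MN1pQdel replicates 1, 2 and 3, 1.11, 0.701 and 0.869 in MN1 replicates 1, 2 and 3, and 6.42 in noTD. The ratio was higher in each MN1pQdel library and in noTD than in any MN1 library, with MN1pQdel replicate 2 the closest to MN1, while its size in one library also depends on the lengths of the genes. Since the ratio joins the pair of members that passed the test, it is given as a description with no test.

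Levels of different genes were compared as CPM per kilobase of annotated exons. On that scale the Runx genes summed to 38.2, 24.7 and 42.8 in MN1pQdel replicates 1, 2 and 3, to 27.8, 28.6 and 30.6 in MN1 replicates 1, 2 and 3, and to 37.6 in noTD. Runx1 made up 37.1 ± 6.07% of this sum in MN1pQdel and 16.7 ± 2.84% in MN1 (SD, n = 3 each), against 39.0% in noTD. Runx2 made up 12.2 ± 6.68% in MN1pQdel and 25.7 ± 2.80% in MN1, against 8.26% in noTD, and Runx3 made up 50.7 ± 2.43% in MN1pQdel and 57.6 ± 3.07% in MN1, against 52.8% in noTD. Runx3 was therefore the most abundant Runx transcript per length in each library by this measure. With the longest transcript of each gene as the length, Runx1 made up 48.0% in MN1pQdel and 23.8% in MN1, which put Runx1 ahead of Runx3 in MN1pQdel replicates 1 and 3 and in noTD, so the order of Runx1 and Runx3 depends on the length chosen. The share of Runx1 was higher in each MN1pQdel library than in each MN1 library by either length.

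Cbfb, which pairs with any RUNX protein, stood per kilobase of annotated exons at 40.6, 42.6 and 43.8 CPM in MN1pQdel replicates 1, 2 and 3, at 35.5, 40.9 and 37.7 CPM in MN1 replicates 1, 2 and 3, and at 36.5 CPM in noTD. Set against the Runx sum of the same library, this gave a ratio of 1.06, 1.72 and 1.02 in MN1pQdel replicates 1, 2 and 3, of 1.28, 1.43 and 1.23 in MN1 replicates 1, 2 and 3, and of 0.971 in noTD. The ratios of the transduced groups overlapped, and MN1pQdel replicate 2, with the lowest Runx sum, had the highest ratio. With the longest transcript as the length the ratios were 0.795, 1.35 and 0.769 in MN1pQdel replicates 1, 2 and 3. They were 1.05, 1.21 and 1.04 in MN1 replicates 1, 2 and 3, and 0.734 in noTD. Whether Cbfb exceeded the Runx sum in MN1pQdel replicates 1 and 3 thus depends on the length chosen. These are ratios of RNA and say nothing of protein.

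**Figure D2:**
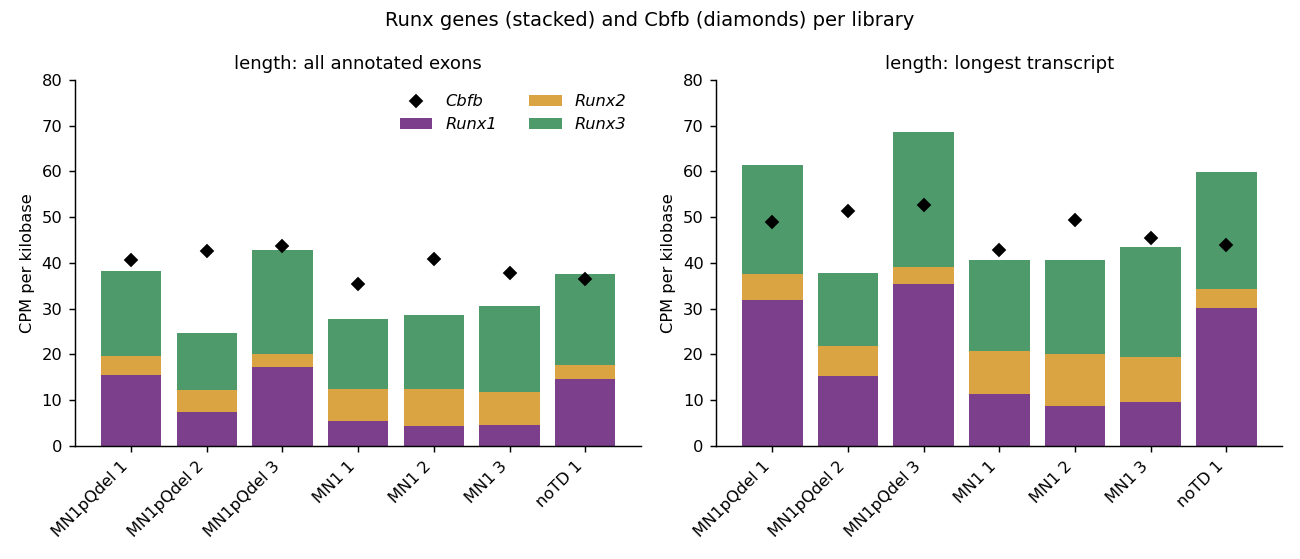
CPM per kilobase (y axis) of Runx1, Runx2 and Runx3, stacked, and of Cbfb (diamonds) in each library, with all annotated exons (left) or the longest transcript (right) as the length. Runx1 takes a larger part of the stack in each MN1pQdel library and in noTD than in the MN1 libraries, and Runx2 a larger part in MN1.

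Among the ETO family members, none passed the threshold. Runx1t1 (chromosome 4, 13743436 to 13893649, plus strand) encodes ETO, the partner in the best known RUNX1 fusion of myeloid leukaemia. It was rare, at 1.79, 3.56 and 1.44 CPM in MN1pQdel replicates 1, 2 and 3, at 7.12, 4.49 and 13.7 CPM in MN1 replicates 1, 2 and 3, and at 2.06 CPM in noTD. All MN1pQdel libraries lay below all MN1 libraries, and MN1 replicate 3 was far above the others of its group. The library counts behind these values were 110, 174 and 58 in MN1pQdel replicates 1, 2 and 3 and 292, 194 and 648 in MN1 replicates 1, 2 and 3, in the same order between groups as the CPM. The log2 fold change was -1.89 (SE 0.52), just outside the threshold with an adjusted p = 0.0501 by edgeR with Benjamini-Hochberg adjustment. It passed with RLE size factors (adjusted p = 0.0498, edgeR), library totals alone (0.0439), no filter (0.0399) and DESeq2 (0.00176), and not with the replicate block (0.0832) or the fit on all 7 libraries (0.0510). Without MN1pQdel replicate 2 the log2 fold change was -2.39 (edgeR adjusted p = 0.0133), and without both replicate 2 libraries it was -2.71 (edgeR adjusted p = 0.00906). The other 5 fits lacking 1 library did not pass, with edgeR adjusted p from 0.0702 to 0.172, and without MN1 replicate 3 the value was -1.36 (edgeR adjusted p = 0.138).

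Cbfa2t3 (chromosome 8, 122625141 to 122699109, minus strand), known as ETO2, is the corepressor of the TAL1 complex in erythroid and megakaryocytic progenitors. It stood at 94.3, 58.3 and 154 CPM in MN1pQdel replicates 1, 2 and 3, at 60.8, 48.2 and 59.4 CPM in MN1 replicates 1, 2 and 3, and at 105 CPM in noTD. MN1pQdel replicate 2 lay inside the MN1 range, while the other MN1pQdel libraries and noTD lay above it. The log2 fold change was 0.88 with an SE of 0.33 (adjusted p = 0.106 by edgeR with Benjamini-Hochberg adjustment). Without MN1pQdel replicate 2 Cbfa2t3 passed, at a log2 fold change of 1.14 (edgeR adjusted p = 0.00848), and without MN1pQdel replicate 3 the value was 0.45. Without both replicate 2 libraries it was 1.03 (edgeR adjusted p = 0.0354).

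Cbfa2t2 (chromosome 2, 154436481 to 154539356, plus strand), a family member that works with PRDM14 in pluripotent cells, varied little. It stood at 28.4, 28.6 and 25.8 CPM in MN1pQdel replicates 1, 2 and 3, at 34.8, 32.7 and 34.7 CPM in MN1 replicates 1, 2 and 3, and at 24.3 CPM in noTD. The MN1pQdel libraries lay below all MN1 libraries and above noTD. The log2 fold change was -0.29 with an SE of 0.11 (adjusted p = 0.114 by edgeR with Benjamini-Hochberg adjustment), and it passed with library totals alone (-0.49, edgeR adjusted p = 0.0431) and with DESeq2 (-0.30, adjusted p = 0.0382).

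Etv6 (chromosome 6, 134035700 to 134270158, plus strand), an ETS repressor needed for blood stem cells in adult marrow, stood at 147, 164 and 115 CPM in MN1pQdel replicates 1, 2 and 3, at 167, 172 and 148 CPM in MN1 replicates 1, 2 and 3, and at 113 CPM in noTD. MN1pQdel replicate 2 lay within the MN1 range and the groups overlapped, while noTD was the lowest library. The log2 fold change was -0.19 with an SE of 0.15 (adjusted p = 0.391 by edgeR with Benjamini-Hochberg adjustment). Per kilobase of annotated exons Etv6 stood at 24.6, 27.4 and 19.3 CPM in MN1pQdel replicates 1, 2 and 3, at 24.8 to 28.8 CPM in the MN1 libraries, and at 18.8 CPM in noTD, below Cbfb in every library.

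**Figure D3:**
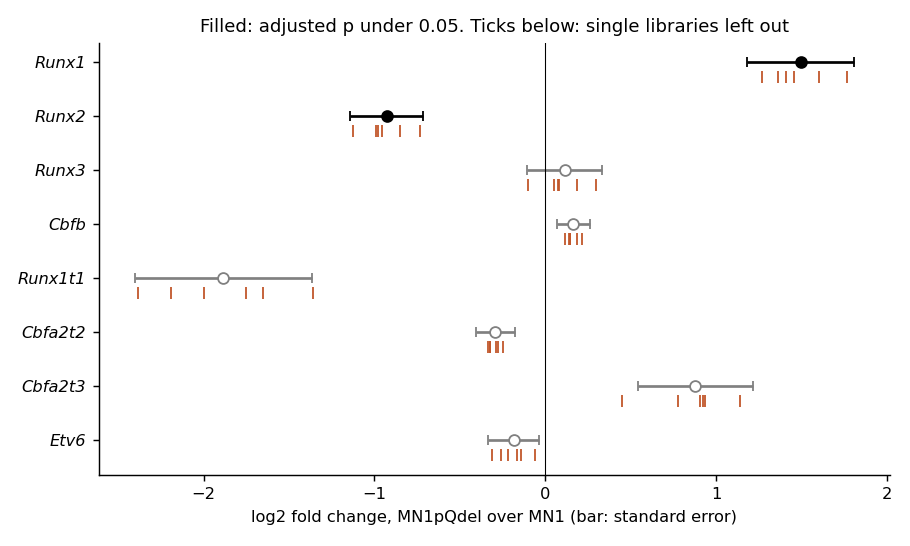
Log2 fold change of MN1pQdel over MN1 (x axis) for each member, with bars for the standard error and ticks for fits lacking 1 library. Filled points passed the adjusted threshold of 0.05. Runx1 is at 1.49, Runx2 at -0.93 and Runx1t1 at -1.89, and the ticks of Runx3 reach both sides of 0.

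The untransduced group has 1 library, so its comparisons carry no test. They are log2 CPM differences with a prior count of 2, and a member was counted as different where the group mean lay at least 2-fold from noTD and noTD fell outside the group's range. By this rule 5.07% of 16216 genes differed between MN1pQdel and noTD, 1.68% higher and 3.39% lower in MN1pQdel, and 27.5% differed between MN1 and noTD, 10.9% higher and 16.6% lower in MN1. Of the 8 members 0 differed in MN1pQdel and 3 in MN1 (2 higher, 1 lower). Both comparisons share the noTD library.

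Runx1 log2 differences from noTD were 0.09, -0.98 and 0.24 in MN1pQdel replicates 1, 2 and 3, a mean of -0.22, and -1.40, -1.78 and -1.66 in MN1 replicates 1, 2 and 3, a mean of -1.62. Replicate 2 alone lay far below noTD in MN1pQdel, and all MN1 libraries did. Runx2 differed from noTD by a mean of 0.28 in MN1pQdel, where the libraries ran from -0.19 to 0.63, and by 1.26 in MN1. Runx1t1 differed by a mean of 0.03 in MN1pQdel, where replicate 2 stood at 0.78 and replicates 1 and 3 at -0.20 and -0.50, and by 1.87 in MN1. Cbfa2t3 had a mean of -0.15 in MN1pQdel and of -0.91 in MN1, just inside 2-fold, with each MN1 library below noTD. Cbfa2t2 and Etv6 lay above noTD in every transduced library, with means of 0.18 and 0.32 in MN1pQdel and of 0.49 and 0.53 in MN1. Runx3 means were -0.19 in MN1pQdel and -0.25 in MN1, and Cbfb means 0.21 in MN1pQdel and 0.06 in MN1. The noTD library was nearer to the MN1pQdel mean than to the MN1 mean for 7 of the 8 members, the exception being Cbfb, and for 82.6% of all genes tested.

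**Figure D4:**
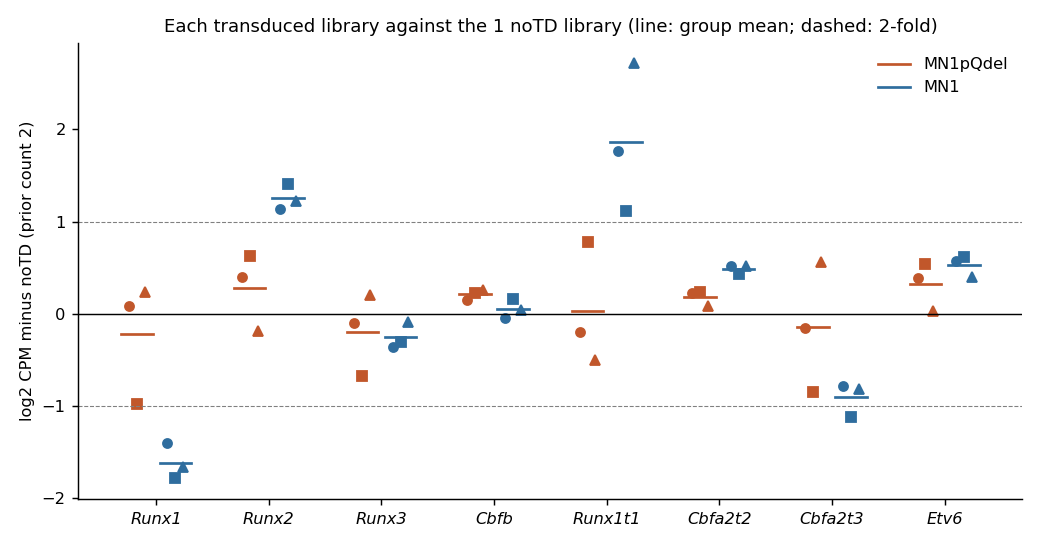
Log2 CPM of each transduced library minus the noTD library (y axis), by member, with lines for group means and dashed lines at 2-fold. All MN1pQdel means lie between the dashed lines, and MN1 means lie past them for Runx1 (-1.62), Runx2 (1.26) and Runx1t1 (1.87).

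Genes whose profile over the 7 libraries was most like that of each member were found by the root mean square difference of log2 CPM, each gene centred on its own mean, among tested genes averaging 5 CPM or more (9835 candidates, and 9836 for Runx1t1). Runx1 was closest to Man2b1, a lysosomal mannosidase gene, at 0.0863, and to Pacs1, a membrane traffic gene, at 0.0960, where the median gene stood at 0.863. Runx2 was closest to Cd1d1, which encodes a lipid-presenting molecule, at 0.0896, and to Klhdc2, a ubiquitin ligase adaptor gene, at 0.101. Runx1t1 had less close neighbours, Thsd7a at 0.217 and the kinase gene Nuak1 at 0.294. Cbfa2t3 was closest to Osbpl8, a lipid transfer gene, at 0.0996, and to Slc35d1, a nucleotide sugar transporter gene, at 0.122. The flatter members had the smallest distances. Usp48 lay at 0.0225 from Cbfa2t2 and Ghitm at 0.0356, and Rida at 0.0363 from Etv6 and Scaf11 at 0.0443. Mfsd14a lay at 0.0390 from Cbfb and Abracl at 0.0429, and Mgat4b at 0.0657 from Runx3 and Tceal9 at 0.0680. Their median gene was also nearer, at 0.290 for Cbfb, 0.302 for Cbfa2t2, 0.330 for Etv6 and 0.399 for Runx3. The median gene stood at 0.603 for Runx2, 0.6275 for Cbfa2t3 and 1.07 for Runx1t1. Each distance is therefore to be read against the member's own median. No member was among the 2 closest genes of another member.

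Lists of genes around the members were then counted in the same fit across all genes, and the passing genes named from them had adjusted p from 0.00423 (Ets1) to 0.0487 (Gfi1b) by edgeR with Benjamini-Hochberg adjustment. In that fit 11.1% of all genes tested were higher and 6.08% lower in MN1pQdel. Calls over all genes numbered 4545 of 14808 with the replicate block and 6394 of 15252 without MN1pQdel replicate 2. The other fits lacking 1 library called 506 to 941 genes. List counts in each setting are to be read against these totals. The RUNX target lists do not record whether RUNX proteins raise or lower a gene. Their counts and medians are therefore no measure of RUNX activity. RUNX targets of the myeloid lineage were higher in MN1pQdel in 3 of 10 tested genes and lower in 1, with a median log2 fold change of 0.20 against 0.01 over all genes. Spi1, which encodes the myeloid master factor PU.1, stood at 343 ± 37.8 CPM in MN1pQdel and 175 ± 27.3 CPM in MN1 (SD, n = 3 each). Cebpe, a driver of granulocyte maturation, differed by 2.11 (SE 0.18) on the log2 scale, and Csf1r, the M-CSF receptor gene, by 0.87 (SE 0.20). Csf2, which encodes GM-CSF, was lower in MN1pQdel by a log2 fold change of -1.64 (SE 0.41), averaging under 1 CPM in both groups. Cebpe kept its call in all 6 fits lacking 1 library, Spi1 in 5, Csf1r in 2 and Csf2 in 1. Csf2 lost it with the replicate block, and Csf1r with library totals alone and without both replicate 2 libraries. The list's median turned to -0.47 without MN1pQdel replicate 2, where 3 genes were higher and 3 lower, and to -0.08 with the block. The neutrophil markers, higher in MN1pQdel in 10 of 10 genes, moved with Spi1 and Cebpe, and their part was not tested. They summed to 17966 to 25334 CPM in MN1pQdel, 2356 to 4623 CPM in MN1 and 26431 CPM in noTD.

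RUNX targets of megakaryocytes and platelets passed in 1 of 7 tested genes, where 17.2% of all genes tested passed. This was Nfe2, an erythroid and megakaryocytic transcription factor gene, at 182 ± 17.4 CPM in MN1pQdel and 118 ± 21.3 CPM in MN1 (SD, n = 3 each). Nfe2 was called in 1 of 6 fits lacking 1 library, the one without MN1pQdel replicate 2, and not with library totals alone or without both replicate 2 libraries. The list's median log2 fold change was 0.74. With the replicate block 4 genes of the list were higher, where 2523 of all 14808 genes tested were higher. The 8 megakaryocyte markers summed to 402 to 1153 CPM in MN1pQdel, 241 to 731 CPM in MN1 and 988 CPM in noTD, with replicate 2 the lowest library in either transduced group, and 0 of the 8 passed.

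Lymphoid RUNX targets were lower in MN1pQdel in 3 of 7 tested genes and higher in 1. Over all genes tested 6.08% were lower and 11.1% higher. The list's median log2 fold change was -0.31 and turned to 0.02 without MN1 replicate 3. The recombinase genes Rag1 (-5.24, SE 1.15) and Rag2 (-2.37, SE 0.46) and the B lineage factor gene Ebf1 (-3.06, SE 0.35) were lower on the log2 scale, averaging under 1 CPM in MN1pQdel and 2.08 to 5.06 CPM in MN1. Zbtb7b, which encodes ThPOK, stood at 127 ± 18.0 CPM in MN1pQdel and 55.9 ± 11.4 CPM in MN1 (SD, n = 3 each), and the T cell gene Cd4 was under 1 CPM throughout. Ebf1 kept its call in all 6 fits lacking 1 library, Zbtb7b in 5, Rag2 in 3 and Rag1 in 1. The 7 B cell markers summed to 2.43 to 5.42 CPM in MN1pQdel, 6.00 to 6.83 CPM in MN1 and 2.80 CPM in noTD, with Pax5 under 1 CPM in each library, and their part was not tested.

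Coregulators and modifiers of RUNX proteins were higher in MN1pQdel in 2 of 20 tested genes and lower in 2, with a median log2 fold change of -0.11. The shares over all genes tested were 11.1% higher and 6.08% lower. Hipk1, a kinase gene of the family that phosphorylates RUNX1, stood at 349 ± 46.2 CPM in MN1pQdel and 201 ± 13.1 CPM in MN1, and Ep300, an acetyltransferase gene, at 192 ± 19.4 CPM in MN1pQdel and 142 ± 12.3 CPM in MN1 (SD, n = 3 each). Prmt1, which encodes an arginine methyltransferase that acts on RUNX1, differed by -0.72 (SE 0.17), and Tle1, a Groucho corepressor gene whose product binds the RUNX C terminus, by -0.76 (SE 0.13). Ep300, Prmt1 and Tle1 each kept the call in 1 of 6 fits lacking 1 library, the one without MN1pQdel replicate 2, and Hipk1 in 3. Ep300 lost it with library totals alone, without the filter and without both replicate 2 libraries. With the block 3 genes of the list were higher and 6 lower, against 2523 higher and 2022 lower of all 14808 genes tested.

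Partners of the ETO proteins, from corepressors, E proteins and the TAL1 complex, were lower in MN1pQdel in 5 of 18 tested genes and higher in 0. The shares over all genes tested were 6.08% lower and 11.1% higher. The list's median log2 fold change was -0.19. Lmo2, a bridging factor of the TAL1 complex, stood at 75.4 ± 53.4 CPM in MN1pQdel and 266 ± 44.9 CPM in MN1 (SD, n = 3 each). The E protein genes Tcf4 and Tcf3 differed by -1.80 (SE 0.39) and -0.56 (SE 0.10). Gfi1b, a repressor gene of erythroid and megakaryocytic cells, differed by -1.08 (SE 0.29) and Kdm1a, the gene of a histone demethylase that works with it, by -0.57 (SE 0.12). Lmo2, Tcf4 and Kdm1a were each called in 1 of 6 fits lacking 1 library, the one without MN1pQdel replicate 2, and Gfi1b in 2 but not with the replicate block. The list had 2 higher and 6 lower genes with the block and 2 higher and 8 lower without MN1pQdel replicate 2. Over all genes those settings called 4545 of 14808 and 6394 of 15252. In the other 5 fits lacking 1 library 0 were higher and 0 or 1 lower.

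ETS genes other than Etv6 were higher in MN1pQdel in 3 of 19 tested genes and lower in 4, with a median log2 fold change of -0.19. Among all genes tested 11.1% were higher and 6.08% lower. Ets1, whose product binds DNA together with RUNX1, stood at 61.4 ± 13.8 CPM in MN1pQdel and 10.2 ± 0.986 CPM in MN1 (SD, n = 3 each). Its log2 fold change, 2.60 (SE 0.20), was called in all 6 fits lacking 1 library. Etv4 (-1.32, SE 0.20) and Erf (-0.86, SE 0.20), an ETS repressor gene, were lower, and Spi1, described above, is also an ETS gene. The others that passed were Elf4, higher at 0.78 (SE 0.18), and Elk3 (-0.81, SE 0.14) and Etv5 (-0.72, SE 0.15), both lower. Etv4 kept its call in 5 of the 6 fits and Erf in 1. Without MN1pQdel replicate 2 there were 5 higher and 6 lower genes on this list, where 3248 of all genes were higher and 3146 lower. Without MN1pQdel replicate 1 there were 1 higher and 0 lower, and the other 4 fits lacking 1 library gave 2 higher and 1 or 2 lower.

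Genes fused in human leukaemia to the human counterparts of the 8 members were higher in MN1pQdel in 3 of 11 tested genes and lower in 3. Among all genes tested 11.1% were higher and 6.08% lower. The list's median log2 fold change was 0.23. Jak2, a cytokine receptor kinase gene, stood at 205, 103 and 204 CPM in MN1pQdel replicates 1, 2 and 3, and at 66.4, 48.1 and 60.8 CPM in MN1 replicates 1, 2 and 3. MN1pQdel replicate 2 was the lowest of its group, as in Mn1 and in the mast cell and eosinophil markers. The part of Mn1 and of these markers in the Jak2 difference was not tested. The kinase gene Syk stood at 301 ± 30.1 CPM in MN1pQdel and 166 ± 12.9 CPM in MN1 (SD, n = 3 each). Pdgfrb, a receptor tyrosine kinase gene, differed by -1.17 (SE 0.30), and the tyrosine kinase genes Abl1 and Abl2 by -0.61 (SE 0.09) and -0.59 (SE 0.16). Mn1, the overexpressed gene, whose counts do not separate the constructs from the endogenous gene, is the third higher gene. Syk kept its call in all 6 fits lacking 1 library, and Jak2, Pdgfrb and Mn1 in 1, the one without MN1pQdel replicate 2. Lower genes on the list numbered 3 in that fit, 1 without MN1pQdel replicate 3 or MN1 replicate 1, and 0 without MN1pQdel replicate 1, MN1 replicate 2 or MN1 replicate 3. Myh11, the partner of CBFB, averaged under 1 CPM in both transduced groups and did not pass the filter on low counts.

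**Figure D5:**
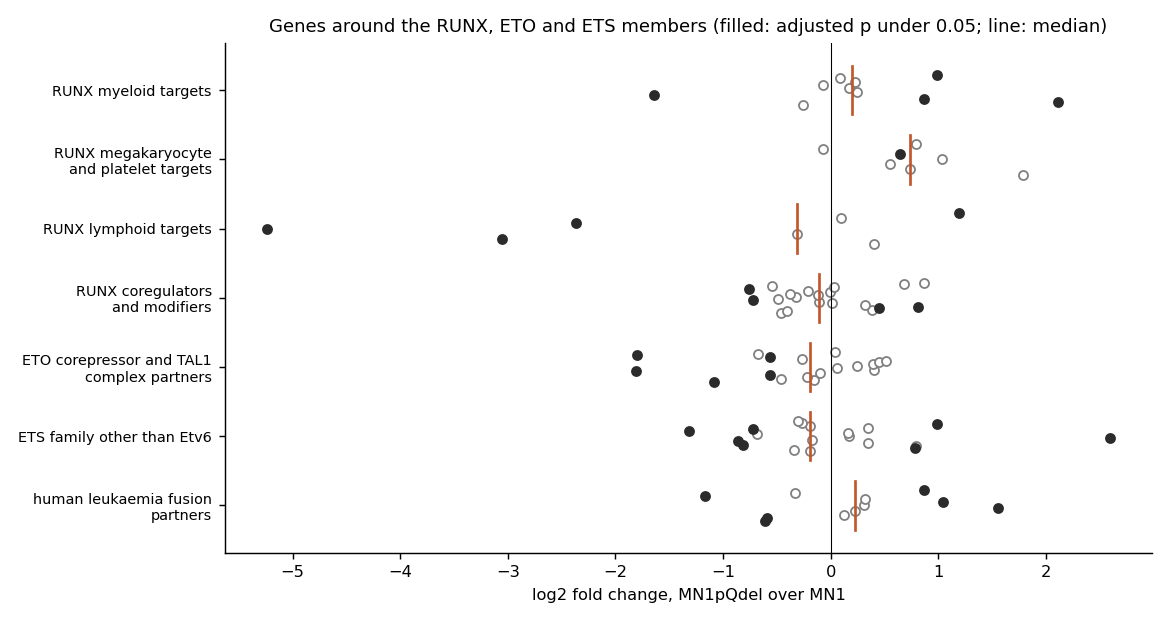
Log2 fold change of MN1pQdel over MN1 (x axis) for each tested gene of the 7 lists (y axis), filled where the adjusted p was under 0.05, with a line at each list's median. Rag1 (-5.24) and Ets1 (2.60) are the outermost points, and only the lymphoid and fusion partner lists of the 7 have more filled than open points. The fusion partner list does so only with Mn1, the overexpressed gene, counted among its filled points.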

How the data were processed

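The values deposited are estimated counts by gene symbol in 7 libraries, not normalised, with 32.5% of values not whole (tolerance 1e-06). The submitters' processing notes name kallisto, DESeq2 and GRCm38, with no version, index or strand setting. Columns were matched to samples by the number in the description. In 26 rows the symbol had become a date (0.172% of counts); they stayed in the tests, unnamed.

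Counts were rounded and filtered with filterByExpr on the transduced groups, scaled by TMM and tested with edgeR 4.0.16 (R 4.3.3), quasi-likelihood, MN1pQdel over MN1, group as the only term, Benjamini-Hochberg over 14808 genes, threshold 0.05. A standard error is the log2 fold change over the square root of F. The test was checked on simulated counts. Alternatives were DESeq2 1.42.0, other scalings, no filter, a fit on all 7 libraries, single libraries left out and a replicate block. The replicate numbers were checked. Deviations from group means correlated at 0.368, 0.259 and 0.320 between same-numbered libraries, each above 0.1. Same-numbered libraries therefore count as paired, a reading that comes from the data and not the labels. The main test, with group as the only term, left this pairing out. The replicate block used it and called 4545 genes, against 2545 in the main fit. Chi-square per gene between replicates was 44.0 to 355, so no library was a copy.

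Each member is named, Mn1 as the check of the constructs, from each list up to 4 passing genes by absolute fold change, and the 2 most alike genes per member; Myh11, Tcf3, Elf4, Elk3, Etv5, Abl1 and Abl2 were named after their values were seen. Numbered, Rik and accession-like genes were left out of the most alike genes. The members and lists were chosen with earlier results of these data known. Coordinates and lengths come from GENCODE M21 and promoters from RefSeq, both on GRCm38. With no strand stated, reads of a gene and of one overlapping it are not separable, and reads of conserved parts of the Runx and ETO genes may be shared.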

Additional observations from a re-analysis of the deposited data

How the results depend on the processing

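The main settings gave 1644 genes higher and 901 lower in MN1pQdel, and 1 member in each direction. Members lower in MN1pQdel numbered 2 with RLE size factors or no filter and 3 with library totals alone or DESeq2, the additions being Runx1t1 and, in the last pair of settings, Cbfa2t2. Without both replicate 2 libraries, chosen after seeing the data, 2 members were higher and 2 lower, with 2617 higher and 2630 lower genes. With single libraries left out, 0 to 2 members were higher and 0 to 2 lower, and 378 to 3248 genes were higher and 95 to 3146 lower, the most without MN1pQdel replicate 2. Library totals alone gave 1845 lower genes and DESeq2 1907. The replicate block gave 2523 higher and 2022 lower genes, and this block changed the call of no member. Leaving out MN1 replicate 1, 2 or 3 or MN1pQdel replicate 1 left 0 members called. Runx3 reversed to -0.10 with library totals alone and ran from -0.10, without MN1pQdel replicate 3, to 0.30 with 1 library left out, and Cbfb reversed to -0.0358 with library totals alone; neither passed in any setting. Of 104 member fold changes under alternatives 82 kept direction and call, 9 lost the call, 10 gained it and 3 reversed. Against noTD, 74 of 80 member differences moved by less than the spread between replicates and 6 by more, all under library totals alone. With the longest transcript as length the Runx1 share moved to 48.0% in MN1pQdel and 23.8% in MN1. The mean ratio of Cbfb to the Runx sum moved to 1.10 in MN1 and stood at 0.97 in MN1pQdel, a change within its spread there. The cause of the changes under these alternatives was not tested. The lowest count of any member in a transduced library was 58, for Runx1t1, which sets the counting error of its value.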
